A study of Mus musculus with 2 samples.

Results

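The cells described here are spiral ganglion neurons of the control library that had intermediate Calb2 and little or no Lypd1. They were chosen by 2 measured values: Lypd1 below 100 CPM (unique molecular identifiers, UMIs, scaled to a total of 1000000 in the cell) and Calb2 from 1000 to under 10000 CPM. Of the 462 control cells, 139 (30.1%) met these bounds, out of 869 cells in the series. They are compared with the 180 control cells with Lypd1 of at least 1000 CPM (Lypd1-high cells) and with the 85 with Lypd1 below 100 CPM and Calb2 of at least 10000 CPM (Calb2-high cells). A further 26 control cells had Lypd1 between the bounds, and 32 had low Lypd1 and Calb2 below 1000 CPM.

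The series holds 2 libraries of mouse cochlear neurons, iCON and iCKO, each prepared once with 10x Genomics 3′ chemistry (v3). The control mice (iCON) were Runx1-CreER/+; Ai14/+, that is, they carried 1 copy of a tamoxifen-inducible Cre recombinase driven from Runx1 and the Ai14 tdTomato reporter. The iCKO mice also carried a floxed Runx1 allele (Runx1-CreER/Runx1F; Ai14/+). All mice received tamoxifen at postnatal day 1, and cochleae of both sexes were dissociated with enzymes at postnatal days 27 to 29 and sorted for tdTomato. A neuron could enter either library only if Runx1-CreER had marked it, and the number of animals is not given in the sources used here. Every ratio below lies within 1 library: cells are not replicates, so no test was run and no p-value is given. Where means of iCKO cells are printed beside those of iCON, they are a description only.

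Spiral ganglion neurons carry sound information from hair cells to the brainstem. Type I neurons, which contact inner hair cells, are usually divided into the Ia, Ib and Ic subtypes by their calcium-binding proteins and a few surface molecules. Calb2 (calretinin) is strongest in Ia, Calb1 (calbindin) is associated with Ib, and Lypd1, a GPI-anchored protein, marks Ic. The subtypes differ in where their endings lie on the inner hair cell and in spontaneous firing and threshold. Runx1 is a transcription factor of the Runt family that is expressed in part of these neurons.

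Calb2 in the 139 cells ran from 1047 to 9862 CPM with a median of 4582 CPM, and Lypd1 from 0 to 95.03 CPM with a median of 0. The median Calb2 was 21002 CPM in Calb2-high cells and 181 CPM in Lypd1-high cells. These values chose the groups and support nothing. The Lypd1-high cells had no bound on Calb2: 140 of the 180 were below 1000 CPM, and the highest reached 16909 CPM. The highest Calb2 inside the upper bound was 9862 CPM and the lowest outside it 10563 CPM, with 17 cells within 20% below the bound and 5 within 20% above it. At the lower bound the neighbouring values were 1047 and 774 CPM, and at the Lypd1 bound they were 95.03 and 120 CPM. The upper Calb2 bound thus runs through a continuous range of cells, while the lower bound lies in a sparsely filled one.

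**Figure D1:**
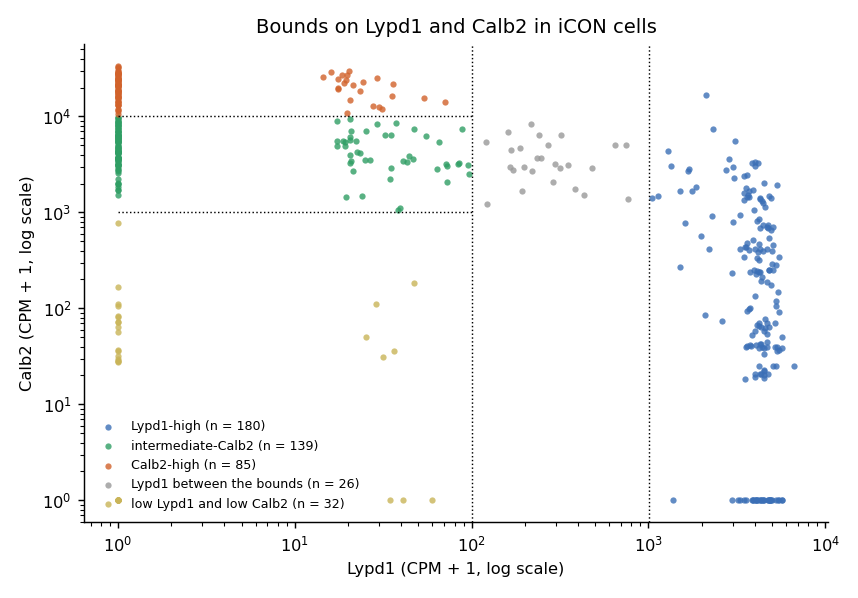
Calb2 against Lypd1 in each iCON cell, both as CPM + 1 on log axes, with dotted lines at the bounds. The 139 intermediate-Calb2 cells (green) adjoin the 85 Calb2-high cells (orange) without a gap, and the 180 Lypd1-high cells (blue) lie to the right.

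The groups were similar in depth, with median UMIs per cell of 47778 in intermediate cells, 55533 in Calb2-high cells and 50681 in Lypd1-high cells. They were unequal in sex. Y-linked RNA marked 86 of the 139 intermediate cells (61.9%, exact binomial 95% interval 53.3 to 70.0), 28 of 85 Calb2-high cells (32.9%) and 79 of 180 Lypd1-high cells (43.9%), while Xist marked 51, 55 and 97. Cells with Xist and cells with Y-linked RNA come from different animals. Glial RNA also differed: Pmp22, a myelin gene, had means of 915, 702 and 985 CPM in intermediate, Calb2-high and Lypd1-high cells and Mbp, another, 453, 355 and 454 CPM. The 5 glial markers past the minimum level were all above the Calb2-high mean, by 0.05 to 0.43 (log2). Values within each sex are given below for the main genes, and cells split by glial RNA are among the alternatives in the closing section. Intervals cover counting error only, not the spread between animals.

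The label was set beside Calb1, Ttn and Lrrc52, the markers given for type Ib. They were given with earlier results of these data known, so they are no independent check of the label. All 3 markers had their highest mean in the intermediate cells. Even so, 3 of the 139 cells (2.16%) held no UMI of any of them, and 19 of 138 (13.8%) when each cell was thinned to 20000 UMIs. Calb1 encodes calbindin, a cytosolic calcium buffer, Ttn encodes titin, the giant spring protein of the sarcomere, and Lrrc52 encodes an auxiliary subunit of large-conductance potassium channels.

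Calb1 (chromosome 4, 15881264 to 15908064, GRCm38, GENCODE M21) ran from 0 to 622 CPM in the intermediate cells, with a median of 45.6 CPM and a mean of 96.6 ± 119 CPM (SD over 139 cells). Its mean was 9.49 ± 30.8 CPM in the 85 Calb2-high cells and 6.59 ± 21.6 CPM in the 180 Lypd1-high cells, and the median was 0 in both. The groups overlapped: 102 of the 139 intermediate cells held a Calb1 UMI, and the highest Calb2-high and Lypd1-high cells reached 204 and 186 CPM. With 5 CPM added to each mean, the log2 ratio of intermediate cells was 2.81 over Calb2-high and 3.13 over Lypd1-high cells. On summed UMIs with nothing added it was 3.46 (95% counting interval 3.01 to 3.96) and 3.97 (3.58 to 4.39). Calb1 was above both groups in cells with Xist (2.73 and 2.80) and in cells with Y-linked RNA (2.67 and 3.43).

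Ttn (chromosome 2, 76703980 to 76982547, minus strand) ran from 0 to 1469 CPM with a median of 58.9 CPM and a mean of 131 ± 198 CPM. Its mean was 11.1 ± 24.7 CPM in Calb2-high and 18.1 ± 76.7 CPM in Lypd1-high cells, again with medians of 0. The ranges overlapped, since 1 Lypd1-high cell reached 887 CPM. The log2 ratio with the pseudocount was 3.08 over Calb2-high and 2.56 over Lypd1-high cells. Within the intermediate cells Ttn moved with sex: its mean was 218 ± 267 CPM in the 51 cells with Xist and 81.0 ± 120 CPM in the 86 with Y-linked RNA. The log2 ratio over Calb2-high cells was 4.23 in the former and 1.77 in the latter, and the part of single animals in this was not tested.

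Lrrc52 (chromosome 1, 167445669 to 167466780, minus strand) was sparse, with a mean of 11.1 ± 18.3 CPM, a median of 0 and a highest value of 92.3 CPM. Its mean was 2.72 ± 9.08 CPM in Calb2-high and 0.573 ± 4.32 CPM in Lypd1-high cells, below the minimum mean of 50 CPM used for counting genes. The log2 ratio of summed UMIs was 1.83 (0.99 to 2.77) over Calb2-high cells and 4.03 (2.84 to 5.53) over Lypd1-high cells, from 72, 14 and 6 UMIs in the 3 groups. Few Lrrc52 UMIs were found in any group. The intermediate mean of Lrrc52 was 6.46 CPM in cells with Xist and 13.9 CPM in cells with Y-linked RNA. With the pseudocount, its log2 ratio over Calb2-high cells was 1.06 in all cells but 0.78 and 0.92 within the sexes, and over Lypd1-high cells it was 1.53, 1.15 and 1.63.

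To compare shares of cells at equal depth, each cell was thinned to 20000 UMIs, which left out 1 intermediate, 2 Calb2-high and 2 Lypd1-high cells. A Calb1 UMI was then present in 63.0% of the intermediate cells (54.4 to 71.1), against 8.43% (3.46 to 16.6) of Calb2-high and 9.55% (5.66 to 14.9) of Lypd1-high cells. For Ttn the shares were 61.6%, 16.9% and 10.7%, and for Lrrc52 14.5%, 6.02% and 0.562%. In the 32 cells with low Lypd1 and low Calb2, 6.25% had Calb1, 15.6% had Ttn and 0% had Lrrc52, which allows up to 10.9% of cells with a UMI at this depth and sets no limit on cells that express so sparse a gene. Type II markers summed above the highest intermediate cell in 31 of these 32 cells. The remaining cell, at 61.9 CPM, held Calb1, Ttn (496 CPM) and Btbd9 (1239 CPM) and is counted in the shares for Calb1 and Ttn. The median depth of those 32 cells was 32141 UMIs before thinning. Without thinning the shares in the intermediate cells were 73.4%, 74.8% and 35.3%.

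The markers were spread unevenly over the intermediate cells. Without thinning, 76 of 139 held both Calb1 and Ttn, 26 Calb1 alone, 28 Ttn alone and 9 neither (6.47%). At equal depth the numbers were 57, 30, 28 and 23 of 138 cells, the last 16.7%. Lrrc52 was found in 30 cells with Ttn and in 19 without it. Across the 139 cells, Spearman's rho was 0.16 between Calb1 and Ttn, -0.08 between Calb1 and Lrrc52 and -0.28 between Ttn and Lrrc52. The last of these was 0.10 in cells with Xist and -0.40 in cells with Y-linked RNA. The points share 1 library and differ in depth, and at these counts the correlations are a description only.

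**Figure D2:**
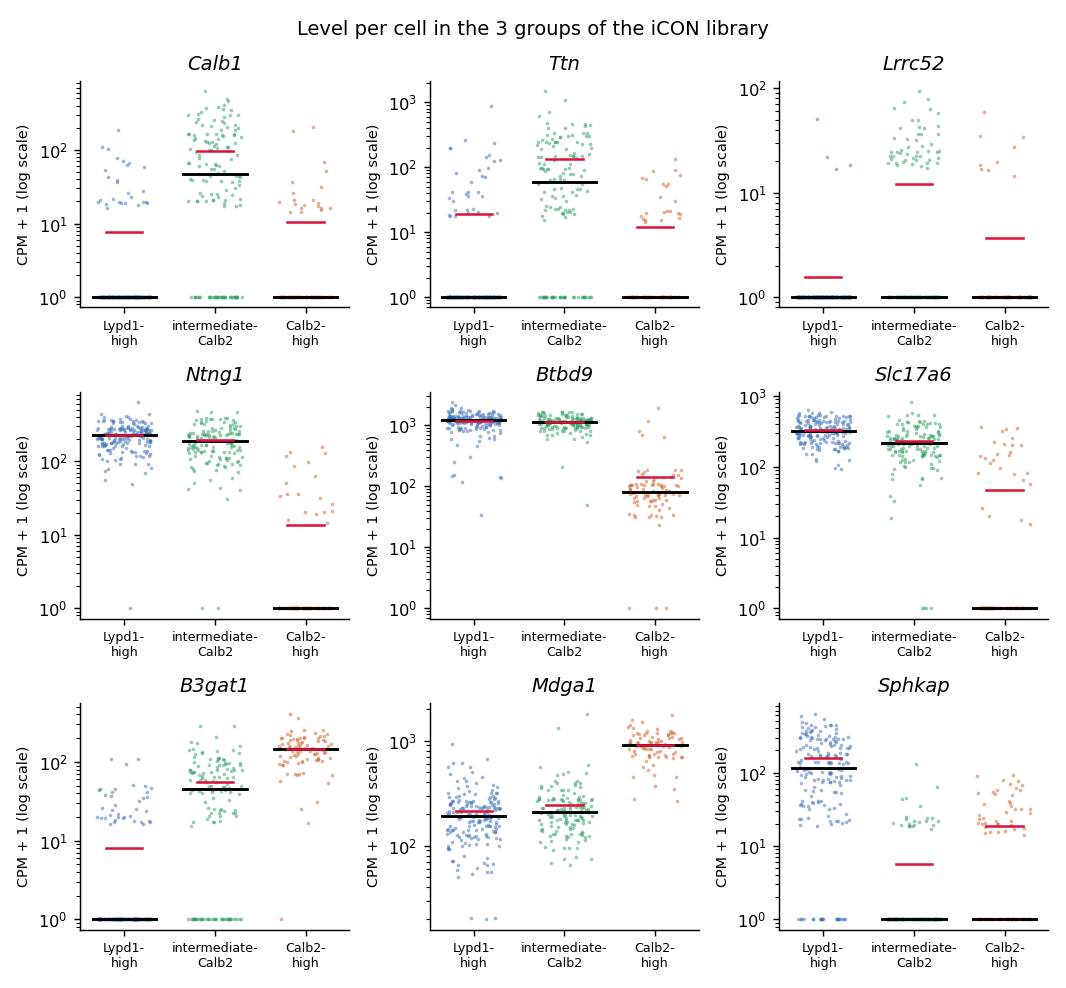
Level per cell (CPM + 1, log scale) of 9 genes in Lypd1-high, intermediate-Calb2 and Calb2-high cells of iCON, with 1 point per cell, the median as a black line and the mean as a red line. Calb1, Ttn and Lrrc52 were highest in the intermediate cells, Ntng1, Btbd9 and Slc17a6 were near the Lypd1-high level, B3gat1 lay between, Mdga1 was near the Lypd1-high level with Calb2-high cells above, and Sphkap was lowest in the intermediate cells.

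Across the transcriptome few genes set the intermediate cells apart. Genes were counted where some group had a mean of at least 50 CPM and a UMI in at least 25% of its cells. Lypd1 and Calb2, which chose the groups, and Xist, Tsix and the Y-linked genes, which marked sex, were left out here and in every count of genes below. Of the 3828 genes that remained, 2 were at least 2-fold above both groups (0.0522%), namely Calb1 and Ttn, and 2 were at least 2-fold below both (0.0522%), namely Sphkap and Htra1. Calb1 and Ttn passed the minimum only through their level in the intermediate cells, so their count is a description only. Against Lypd1-high cells, 13 genes were at least 2-fold higher (0.34%) and 16 lower (0.418%). Against Calb2-high cells, 34 were higher (0.888%) and 16 lower (0.418%). The higher genes include Calb1 and Ttn in both comparisons, Casz1 against Lypd1-high cells, and Hsd17b14 and Gm4980 against Calb2-high cells. These too passed the minimum only through the intermediate cells, so the counts of higher genes are a description only. The median log2 ratio of all 3828 genes was 0.00 and 0.03, and the middle 95% lay between -0.41 and 0.44 against Lypd1-high and between -0.36 and 0.52 against Calb2-high cells. All 29 ratios past 2-fold against Lypd1-high cells had the same direction in cells with Xist and in cells with Y-linked RNA, with 22 past 2-fold in both. Of the 50 against Calb2-high cells, 49 kept their direction in cells with Xist and 50 in cells with Y-linked RNA. Of these 50, 34 were past 2-fold in both. All these ratios were chosen in means that pool the same cells, so equal direction was largely set by the choice. It is a description only.

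**Figure D3:**
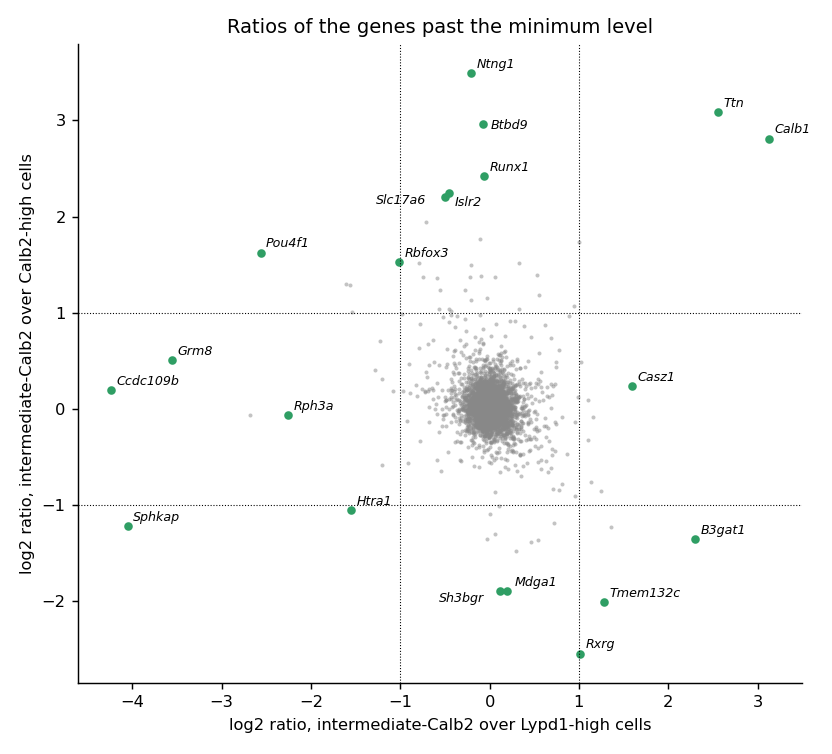
Log2 ratio of the intermediate-Calb2 mean over the Calb2-high mean (vertical) against that over the Lypd1-high mean (horizontal), 1 point per gene past the minimum level, with dotted lines at 2-fold. Calb1 and Ttn stand above both groups at upper right, Sphkap and Htra1 below both at lower left, and the genes at top centre differ from Calb2-high cells but not from Lypd1-high cells by 2-fold.

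Further genes lay above both groups by less. Ccdc155, a partner of the nuclear-envelope bridge that connects chromosomes to motors in germ cells, had 178 ± 78.7 CPM against 82.4 in Calb2-high and 89.8 in Lypd1-high cells. Edil3, a secreted integrin ligand, had 123 ± 73.9 CPM against 60.4 and 64.3 CPM. S100a10, the annexin A2 partner p11, had 591 ± 202 CPM against 257 and 400 CPM, and it stayed above both means in each sex, with a log2 ratio over Calb2-high cells of 1.25 in cells with Xist and 0.84 in cells with Y-linked RNA. Plcb4, a phospholipase C, had 209 CPM against 123 and 128 CPM. Hsd17b14, a dehydrogenase that acts on steroids and fatty acids, had 60.7 CPM against 14.7 and 27.8 CPM. It passed the minimum only through the intermediate cells, and its level there moved with sex. The intermediate mean was 12.7 CPM in cells with Xist and 90.3 CPM in cells with Y-linked RNA. The log2 ratio over Calb2-high cells was -0.14 in the former. Among genes below the minimum level, Fos, an immediate early gene, also stood 2-fold above both means (12.6 CPM against 2.47 and 3.71 CPM), again unevenly, with 24.9 CPM in cells with Xist and 5.19 CPM in those with Y-linked RNA. Egr1, another immediate early gene that also responds to dissociation, had 44.4 and 7.51 CPM in the same cells, and its part in the results was not tested.

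Sphkap, an A-kinase anchoring protein that ties protein kinase A to membranes, was the gene furthest below both groups. It ran from 0 to 131 CPM in the intermediate cells with a median of 0 and a mean of 4.68 ± 14.6 CPM, against means of 17.5 ± 23.9 CPM in Calb2-high and 156 ± 139 CPM in Lypd1-high cells. At equal depth 7.97% of intermediate cells had a UMI, against 31.3% and 75.8%. The Sphkap gap to Calb2-high cells was -1.22 (log2) in all cells but -0.85 in cells with Xist, so that no gene past the minimum level was 2-fold below both groups in those cells. Htra1, a secreted serine protease, had 30.4 ± 31.0 CPM against 68.3 and 98.4 CPM, and its gap to Calb2-high cells was -0.96 in cells with Xist and -0.94 in cells with Y-linked RNA. Reads of the overlapping Fgfr2 on the other strand cannot be told apart, because the strand setting of the counting is not given in the sources used here.

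One set of genes placed the intermediate cells with Lypd1-high cells and apart from Calb2-high cells. Ntng1, netrin-G1, a GPI-anchored axonal adhesion molecule, had 195 ± 99.4 CPM in intermediate cells, 225 ± 86.9 CPM in Lypd1-high and 12.7 ± 32.0 CPM in Calb2-high cells. A UMI was present at equal depth in 95.7%, 97.8% and 12.05% of the cells. The Ntng1 ranges overlapped at few cells: 7 of 139 intermediate cells were below 50 CPM and 7 of 85 Calb2-high cells were at 50 CPM or more. Btbd9, a BTB-domain protein, had 1122 ± 279 CPM against 1182 ± 369 CPM in Lypd1-high and 139 ± 259 CPM in Calb2-high cells. Only 2 of 139 intermediate cells were below 300 CPM and 5 of 85 Calb2-high cells were at 300 CPM or more. Those 5 cells held 648 to 1909 CPM of Btbd9 and 84.0 to 154 CPM of Ntng1, and 3 of them had Calb2 under 12000 CPM. The Calb2-high mean of Btbd9 rests in part on them: it was 82.5 CPM in the other 80 cells, and that of Ntng1 was 6.12 CPM, while the medians over all 85 were 80.5 and 0 CPM. These limits of 50 and 300 CPM were set after the values were seen.

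Runx1 followed the same pattern. Its level was 0 to 421 CPM with a median of 97.4 and a mean of 107 ± 68.3 CPM in intermediate cells, 112 ± 68.3 CPM in Lypd1-high cells and 15.9 ± 26.0 CPM in Calb2-high cells. The log2 ratio over Calb2-high cells was 2.42, and 2.59 and 2.42 within the sexes. Because tdTomato was switched on by Runx1-CreER, the sort itself used this locus. In the 52 iCKO cells within the same bounds the Runx1 mean was 118 ± 89.6 CPM. A 3′ tag need not lie in the deleted part of the gene, so this value does not check the deletion.

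Slc17a6, the vesicular glutamate transporter VGLUT2, had 232 ± 131 CPM, against 331 ± 116 CPM in Lypd1-high and 46.5 ± 91.0 CPM in Calb2-high cells, and a median of 0 in the last. Slc17a7 (VGLUT1), another vesicular glutamate transporter, did not follow it: its means were 523, 433 and 668 CPM in the same order, with values in every cell. The Slc17a6 ratio over Calb2-high cells differed between the sexes, at 3.29 (log2) in cells with Xist and 1.10 in cells with Y-linked RNA, where the Calb2-high means were 22.4 and 97.02 CPM. The intermediate means were 264 and 214 CPM.

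Other genes at or near the Lypd1-high level included Islr2, a membrane protein of axon guidance (42.7, 60.2 and 5.07 CPM in intermediate, Lypd1-high and Calb2-high cells), though the overlapping Islr cannot be told apart from it. Gldn, gliomedin, which organizes nodes of Ranvier, had 226, 241 and 83.8 CPM. Kcnip2, a subunit of A-type potassium channels, had 68.3, 79.7 and 20.98 CPM. None of these was 2-fold apart from Lypd1-high cells. Lgi1, a secreted synaptic organizer, had 47.9, 56.8 and 15.5 CPM. Adgrl2, a latrophilin adhesion receptor, had 57.9, 71.2 and 21.7 CPM, and Hspb8, a small heat shock protein, 50.1, 54.5 and 11.2 CPM. The same nearness held for some of the genes that were high only in Calb2-high cells among these 3 groups. Of 36 genes at least 2-fold higher in Calb2-high than in Lypd1-high cells, 18 were closer to Lypd1-high and 18 to Calb2-high cells. Mdga1, a GPI-anchored inhibitor of neuroligin binding, had 242 ± 192, 210 ± 124 and 914 ± 277 CPM, with 5 of 139 intermediate cells at 500 CPM or more and 7 of 85 Calb2-high cells below it. Sh3bgr had 21.9, 19.7 and 94.7 CPM, Car2, a carbonic anhydrase, 23.5, 24.1 and 67.8 CPM, and Hpcal1, a neuronal calcium sensor, 18.1, 17.2 and 51.9 CPM.

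Another set placed the intermediate cells with Calb2-high cells and apart from Lypd1-high cells. Grm8, the metabotropic glutamate receptor mGluR8, had 3.63 ± 12.1 CPM in intermediate and 1.07 ± 6.15 CPM in Calb2-high cells, against 96.6 ± 56.4 CPM in Lypd1-high cells. Ccdc109b, the older symbol of Mcub, a regulatory subunit of the mitochondrial calcium uniporter, had 4 UMIs in all 139 intermediate cells together and 0 in the 85 Calb2-high cells, which allows up to 0.671 CPM, against 103 ± 64.7 CPM in Lypd1-high cells. Rph3a, rabphilin, a synaptic vesicle protein, had 28.1, 29.6 and 153 CPM in intermediate, Calb2-high and Lypd1-high cells, and Cd164l2 had 8.15, 8.70 and 79.5 CPM. In the other direction, Casz1, a zinc-finger transcription factor, had 53.8 ± 51.4 CPM in intermediate cells, 45.0 CPM in Calb2-high cells and 14.4 CPM in Lypd1-high cells. Rasgrp2, an exchange factor for Rap, had 229, 243 and 100.1 CPM, and Neb, nebulin, a sarcomere protein like titin, 127, 161 and 56.8 CPM. Neb differed from Ttn in that it was not above the Calb2-high mean.

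The remaining genes lay between. B3gat1, the glucuronyltransferase that makes the HNK-1 epitope, had 54.2 ± 54.0 CPM, between 146 ± 66.7 CPM in Calb2-high and 7.02 ± 17.3 CPM in Lypd1-high cells, where reads of Glb1l2 on the other strand cannot be told apart. Cd24a, a GPI-anchored glycoprotein, had 587, 998 and 264 CPM. Pou4f1, the POU-domain factor Brn3a and a marker of Ic neurons, had 12.03 ± 18.1 CPM against 0.527 CPM in Calb2-high and 95.7 ± 52.1 CPM in Lypd1-high cells. Rbfox3, the splicing factor NeuN, had 94.9, 29.7 and 196 CPM, and Pcsk2, a prohormone convertase, 53.1, 18.7 and 173 CPM. Rxrg, a retinoid X receptor and a marker of Ia neurons, had 6.68 CPM against 63.2 CPM in Calb2-high and 0.776 CPM in Lypd1-high cells. Tmem132c, a membrane protein, had 10.1, 55.9 and 1.24 CPM and moved with sex, at 23.3 CPM in the intermediate cells with Xist and 2.57 CPM in those with Y-linked RNA.

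To place the intermediate cells, the 97 genes past the minimum level, Lypd1 and Calb2 left out, that differed at least 2-fold between Calb2-high and Lypd1-high cells were taken, 36 higher in the former and 61 in the latter. On a log2 scale where 0 is the Lypd1-high and 1 the Calb2-high level, the median place was 0.468, with quartiles of 0.252 and 0.612. By the nearer end, 55 genes were closer to Lypd1-high (56.7%) and 42 to Calb2-high cells. The distribution was broad: 3 genes lay beyond the Lypd1-high end, 21 between 0 and 0.25, 57 in the middle, 11 near the Calb2-high end and 5 beyond it. Of these genes 2, Casz1 and Gm4980, passed the minimum only through their level in the intermediate cells, and both lay beyond an end; Gm4980 is named after its values were seen. Without them, 6 of 95 genes lay beyond an end and the median place was 0.468. Genes higher in Lypd1-high cells lay closer to that end (median 0.352) than genes higher in Calb2-high cells (median 0.505). Thus 57 of the 97 genes lay in the middle, and the others lay near or beyond the level of one group.

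**Figure D4:**
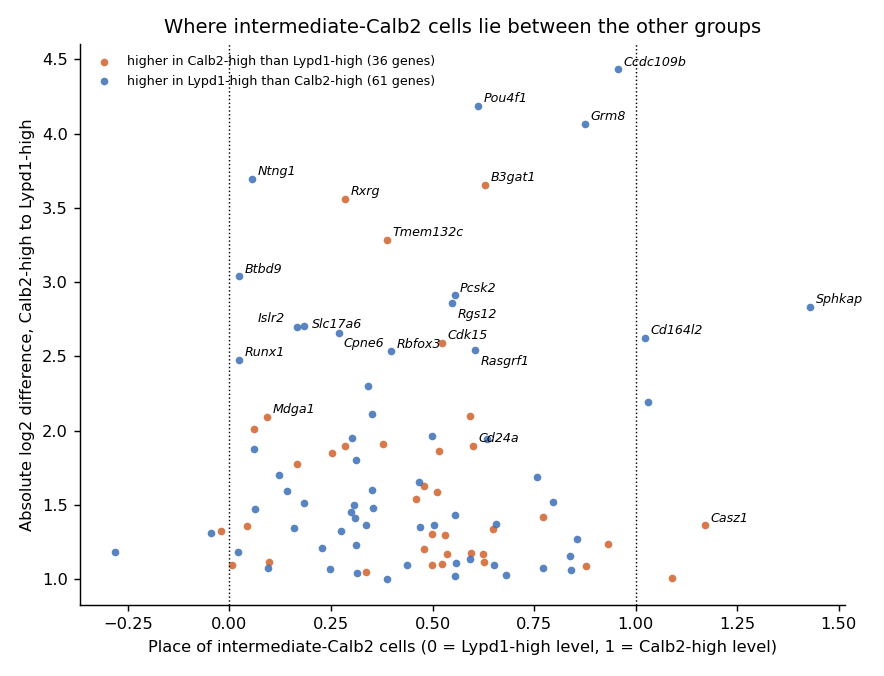
Place of the intermediate-Calb2 mean between the Lypd1-high level (0) and the Calb2-high level (1), on a log2 scale, against the size of the difference between those groups, for the 97 genes that differ at least 2-fold. Ntng1, Btbd9, Runx1 and Mdga1 sit near 0, Grm8, Ccdc109b and Cd164l2 near 1, Casz1 and Sphkap beyond 1, and B3gat1, Pcsk2 and Cdk15 between.

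The promoters of Ttn, and of those genes that were high in Lypd1-high cells and stayed near that level in the intermediate cells (a place below 0.25), were read for the Runx core TGTGGT on both strands (ACCACA in reverse), because Runx1 is one of these genes. Of 17 such genes 13 matched the RefSeq promoter table (GRCm38.p6, 250 bases before to 50 after the start), and 2 held the letters (15.4%), against 18.9% of 27025 symbols in the table. The 2 are shown with the letters in capitals, beside Ttn, which was above both groups and has none in this window. A second Runx1 promoter in the table, chr16:92697280-92697579, held none. A match is a description of letters only.
Ttn promoter, chr2:76982498-76982797, minus strand: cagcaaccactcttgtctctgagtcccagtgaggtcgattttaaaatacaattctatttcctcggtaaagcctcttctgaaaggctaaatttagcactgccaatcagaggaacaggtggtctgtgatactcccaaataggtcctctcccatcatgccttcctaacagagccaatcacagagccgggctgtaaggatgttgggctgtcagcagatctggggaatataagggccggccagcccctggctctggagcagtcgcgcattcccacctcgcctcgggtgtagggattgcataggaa
Runx1 distal promoter, chr16:92826025-92826324, minus strand: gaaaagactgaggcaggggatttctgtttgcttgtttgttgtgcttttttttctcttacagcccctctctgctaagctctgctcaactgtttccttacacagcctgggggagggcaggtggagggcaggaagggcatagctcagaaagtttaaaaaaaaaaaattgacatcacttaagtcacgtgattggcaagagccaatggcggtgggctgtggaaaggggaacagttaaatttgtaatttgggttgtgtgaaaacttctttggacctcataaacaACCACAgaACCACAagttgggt
Adgrl2 promoter, chr3:148954586-148954885, minus strand: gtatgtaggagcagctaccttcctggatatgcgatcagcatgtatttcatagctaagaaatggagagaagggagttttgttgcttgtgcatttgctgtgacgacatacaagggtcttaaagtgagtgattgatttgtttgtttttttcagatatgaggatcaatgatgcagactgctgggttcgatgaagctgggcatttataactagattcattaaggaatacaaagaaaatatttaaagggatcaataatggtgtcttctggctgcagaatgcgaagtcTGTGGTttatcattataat

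The gene lists by function are read beside the shares over all 3828 genes, 0.34% higher and 0.418% lower than in Lypd1-high cells and 0.888% higher and 0.418% lower than in Calb2-high cells. Of 51 potassium channel genes in the table, 16 passed the minimum level, none was 2-fold apart from Lypd1-high cells and 1, Kcnip2, was higher than in Calb2-high cells. Kcna1, a low-threshold channel, had 1588, 1569 and 1764 CPM in intermediate, Calb2-high and Lypd1-high cells. None of 10 sodium, HCN and calcium channel genes past the minimum was 2-fold apart in either comparison. Of 6 glutamate receptor genes only Grm8 was, against Lypd1-high cells, while the AMPA receptor gene Gria2 had 120, 97.1 and 117 CPM. Of 22 presynaptic genes only Slc17a6 was 2-fold apart, against Calb2-high cells, and Snap25 had 3327, 3043 and 3327 CPM. Of 29 transcription regulators, Casz1 and Rxrg were 2-fold higher and Pou4f1 lower than in Lypd1-high cells, and Runx1, Pou4f1 and Mef2c were higher and Rxrg lower than in Calb2-high cells. Rxrg over Lypd1-high cells was at 1.02 (log2) in all cells but 0.89 in cells with Xist, and Mef2c over Calb2-high cells at 1.04 but 0.87 in cells with Y-linked RNA, so that neither was past 2-fold in both sexes. Of 26 adhesion and guidance genes Ntng1 was higher and Mdga1 lower than in Calb2-high cells. The calcium-binding list had 15 genes past the minimum, with Calb1 above both groups, Ccdc109b below Lypd1-high cells, S100a10 above and Hpcal1 below Calb2-high cells. Hpcal1 was at -1.30 (log2) in all cells and -0.98 in cells with Xist. Parvalbumin (Pvalb), a buffer of nearly all type I neurons, stood at 3703, 3734 and 3792 CPM.

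The 8 neuron markers summed to a median of 18765 CPM in the intermediate cells, with a range of 9223 to 24901 CPM. Markers of other cell types were low apart from glial and fibroblast or bone genes. Values were given for only 1 of 3 endothelial, 1 of 4 myeloid, 1 of 2 B cell and 0 of 3 erythroid markers. The 6 type II markers summed to a median of 36.7 CPM, with a range of 0 to 137 CPM and 32 cells at 0, against a median of 1633 CPM in the 32 cells with low Lypd1 and low Calb2. Endothelial Cldn5 and myeloid Csf1r had 0 UMIs, which allows up to 0.464 CPM. The 5 hair cell genes in the table summed to medians of 35.7, 19.2 and 38.5 CPM in intermediate, Calb2-high and Lypd1-high cells. Summed fibroblast or bone genes had medians of 171, 74.8 and 140 CPM in intermediate, Calb2-high and Lypd1-high cells, and their part in the other differences was not tested. Scrublet called 1 of the 462 control cells a doublet, none of them in this group.

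Within the 139 cells, Calb2 itself ran almost 10-fold, and the cells were divided by it into 47 lower, 46 middle and 46 upper cells, a division made after values were seen. B3gat1 was higher in the upper cells, with means of 33.8, 56.5 and 72.7 CPM, and so were Cd24a (467, 606 and 691 CPM) and Lrrc52 (7.76, 9.77 and 16.0 CPM). Ttn ran the other way, at 167, 132 and 93.9 CPM, as did Calb1 (115, 110 and 64.6 CPM) and Rbfox3 (131, 82.4 and 70.2 CPM). Btbd9 was level at 1114, 1133 and 1120 CPM, and Runx1 at 102, 116 and 102 CPM. Ntng1 was 212, 187 and 184 CPM. The median depth of the parts was 47372, 48642 and 47590 UMIs, and Y-linked RNA marked 28, 26 and 32 cells. Over 3572 genes the rho with Calb2 lay between -0.37 and 0.36. Calb2 chose these cells and the bounds cut its range, so these values are a description only.

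Among the genes with the highest variance over the mean at equal depth within the intermediate cells were Rn45s (a ribosomal RNA precursor), Malat1, Meg3, Mir6236, Fth1, Pmp22, Igfbp6, Mt1 and Spp1, and Ttn ranked 17. A second ranking, added after values were seen, took the variance above counting (Poisson) error and divided it by the square of the mean. There Hsd17b14, Ptgds, Ttn, Neb and Calb1 stood among the 8 highest of 3572 genes.

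The cells with Lypd1 between 100 and 1000 CPM, 26 in all, were close to the intermediate cells in several of these genes. Their means were 68.4 ± 84.6 CPM for Calb1, 114 ± 188 CPM for Ttn, 224 CPM for Ntng1 and 1112 CPM for Btbd9, and Pou4f1 was 27.3 CPM. In the 52 iCKO cells within the same bounds, Calb1 had 121 ± 158 CPM, Ttn 101 ± 131 CPM, Ntng1 209 CPM, Mdga1 373 ± 281 CPM and Sh3bgr 120 ± 109 CPM. The libraries differ in genotype and were prepared once each, which cannot be told apart.

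**Figure D5:**
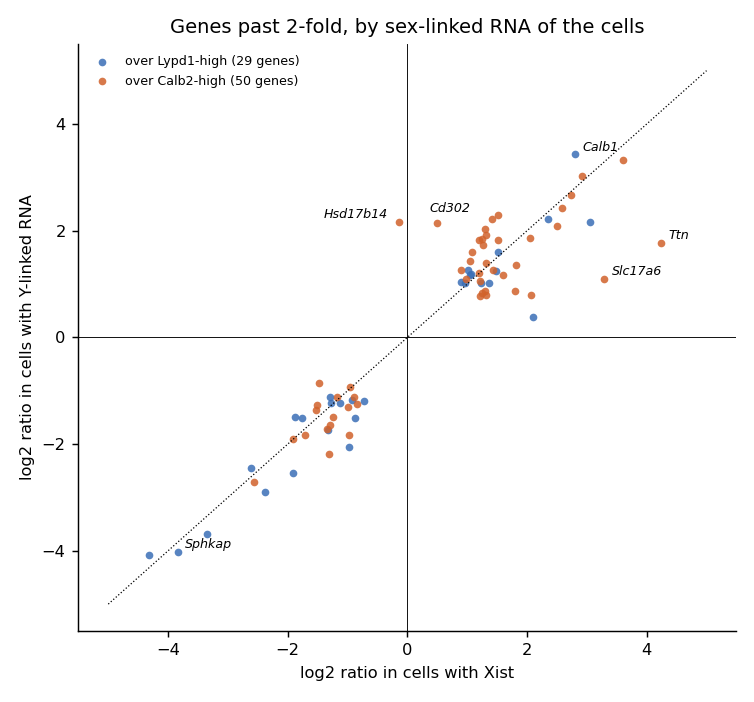
Log2 ratios of the genes past 2-fold, over Lypd1-high cells (29 genes, blue) and over Calb2-high cells (50 genes, orange), in cells with Y-linked RNA (vertical) against cells with Xist (horizontal), with the line of equality dotted. All points but Hsd17b14 against Calb2-high cells lie in the quadrants of equal sign. The genes were chosen by the ratio over all these cells together, so equal sign is a description only.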

How the data were processed

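The authors deposited, for each cell and gene, a natural log value: the natural log of 1 plus CPM, since linear values sum to 1000000 in every cell, and a text label column that gives each cell's library. Cell Ranger, Seurat and the build mm10 are named without role or version, per the submitters' processing notes; filters on cells and genes are not given in the sources used here. Whole UMIs were computed from each cell's smallest step (all nonzero values within 1e-06 of whole). 0 barcodes were shared between libraries and 0 columns lacked a library.

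Levels are means of CPM over cells, and ratios are log2 with a pseudocount of 5 CPM. Only fold (at least 2) was used, with no test; intervals are exact, at 95%. The groups and lists were chosen with earlier results of these data known. The rule for naming genes took the 12 highest above and 8 lowest below both groups, the 8 highest and lowest ratios of each comparison, the 10 most variable genes and members of the role lists. Of the 8 extremes, Gnao1, Tmem229b, Pygl and Cpne6 (against Calb2-high cells) and Rgs12 and Upp1 (against Lypd1-high cells) are not described above. Some genes described above, such as Gm4980, lie outside this rule. Alternatives were a pseudocount of 1 CPM, a minimum of 10 CPM, summed UMIs, each sex, myelin-gene RNA, thinning, doublets and narrower Calb2 bounds. Another left out the highest cell of each gene. Those chosen after seeing the data are named in the closing section. Scripts used python 3.11.15, numpy 2.4.6, pandas 2.3.3, scipy 1.17.1 and scanpy 1.11.5 (Scrublet), and were tested on simulated data. A few genes are not reported here.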

Additional observations from a re-analysis of the deposited data

Results flagged for a closer look

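For 3 genes the ratio of the intermediate-Calb2 cells was at least 0.5 (log2) in one direction in cells with Xist and at least 0.5 in the other in cells with Y-linked RNA, a size chosen after the values were seen. With the 2-fold used elsewhere, 1 on this scale, in both directions, no gene would be listed. The difference between the sexes was not tested, and the sexes come from different animals. Hsd17b14 over Lypd1-high cells was -0.82 in cells with Xist and 1.41 in cells with Y-linked RNA. Mir6236, an annotated microRNA precursor, over Calb2-high cells was -0.74 and 0.65. Ptgds, a prostaglandin synthase of glia and meninges, over Calb2-high cells was -0.58 and 1.43.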

How the results depend on the processing

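Cells could not be paired by animal, because the comparison lies within 1 library and the labels give no replicate numbers. The groups were compared within each sex, told by Xist and Y-linked RNA, and with the sexes weighted equally. The 46 genes named by ratio or as type Ib markers gave 47 ratios past 2-fold. Under 14 alternatives, 657 of their 658 values kept direction. The other was Hsd17b14 over Calb2-high cells, at -0.14 in cells with Xist. These ratios were chosen as past 2-fold and the alternatives reuse the same cells. Their direction was thus largely set in advance and is a description only. With a minimum of 10 CPM and none on detection, 8689 genes were counted in place of 3828. Of these, 34 were higher and 50 lower than Lypd1-high, and 71 higher and 41 lower than Calb2-high. Above both were 4, namely Calb1, Ttn, Fos and Lrrc52. Calb1, Fos and Lrrc52 passed this minimum only through the intermediate cells. Below both were 3, namely Sphkap, Htra1 and Crtac1. The last had 10.5 CPM against 27.1 in Calb2-high and 33.0 in Lypd1-high cells. At that minimum 12 genes were above both in cells with Xist and 4 in cells with Y-linked RNA, sharing Calb1 and Ttn only. Below both were 1 and 3, sharing Crtac1. Shares over all genes were not computed within the sexes at that minimum, so these counts are a description only. The count below both, 2, became 0 in cells with Xist. It became 1 in cells with Y-linked RNA and with high myelin RNA. It was also 1 with Calb2 from 2000 to under 5000 CPM and with the sexes weighted equally. The count above both, 2, became 3 in each sex, with a pseudocount of 1 CPM, on summed UMIs and with high myelin RNA. It was also 3 without Rn45s, Malat1 and Mir6236 and with low Calb2 in Lypd1-high cells. At the 50 CPM minimum, the genes higher than Lypd1-high ran from 9 to 17 and the lower from 13 to 22. Against Calb2-high cells they ran from 32 to 46 and from 12 to 20. The cause was not tested. Unthinned shares were 73.4%, 74.8% and 35.3% for Calb1, Ttn and Lrrc52. The share of genes closer to Lypd1-high cells, 56.7%, was recomputed under 4 alternatives only: 52.0% at the 10 CPM minimum, 57.1% on summed UMIs, 59.6% in cells with Xist and 56.8% with the minimum met in Calb2-high or Lypd1-high cells. The last, and those without Rn45s, Malat1 and Mir6236, with low Calb2 in Lypd1-high cells and with the sexes weighted equally, were chosen after seeing the data. With only the 140 Lypd1-high cells below 1000 CPM of Calb2, the genes higher than Lypd1-high went from 13 to 17. The genes lower than Lypd1-high went from 16 to 22. With 1 library, differences between animals are not covered by any interval, and genes under about 10 CPM rest on few UMIs.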
